A study of Homo sapiens with 32 samples.

Results

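The urokinase system and *ADAMTS1* were represented by 6 genes, taken by symbol from the 25498 gene rows of the expression tables: *PLAU*, *PLAT*, *PLAUR*, *SERPINE2*, *SERPINB5*, and *ADAMTS1*. RNA-Seq had been performed on LNCaP, a human prostate cancer cell line that expresses the androgen receptor, in 8 groups of 4 libraries, with 2 libraries per group in each of 2 batches. One group was kept in medium with FBS. The other groups were switched to charcoal-stripped serum (CSS), a serum depleted of steroid hormones by adsorption. Of these, 1 group stayed untreated (hereafter CSS), and the others received 100 ng/mL of EGF or of NRG-1 for 5 minutes, 1 hour, or 4 hours. EGF is a ligand of EGFR and NRG-1 a ligand of HER3 and HER4, so that both can engage HER2. All groups are the same cell line, and the labels call the libraries of 1 group biological replicates without saying whether they came from separate cultures, so P values measure the spread between these libraries.

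In the plasminogen activation system, the serine proteases urokinase (uPA, encoded by *PLAU*) and tissue-type plasminogen activator (tPA, encoded by *PLAT*) cut plasminogen into plasmin, which degrades fibrin and other matrix proteins. The receptor uPAR (*PLAUR*) holds urokinase at the cell surface, and serpins such as protease nexin-1 (*SERPINE2*) trap the activators and plasmin. Maspin (*SERPINB5*) is a serpin of prostate and breast epithelium that is not known as a classical protease inhibitor, and ADAMTS1 is a secreted metalloprotease that cuts matrix proteoglycans.

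The bases upstream of the transcription start are shown for the 4 of these genes whose windows were used here. At 4 hours, *PLAU* and *SERPINE2* rose with each ligand and *SERPINB5* fell with EGF, whereas *PLAUR* did not pass the test in any comparison. Each line gives 250 bases that end just before a start annotated by RefSeq (GRCh38.p14), 5′ to 3′ on the strand of the gene, and of 2 annotated starts of *PLAU* and of *SERPINE2* the one farther downstream is shown. Capitals mark the motifs that were found on either strand.
PLAU (chr10:73910882-73911131, plus strand): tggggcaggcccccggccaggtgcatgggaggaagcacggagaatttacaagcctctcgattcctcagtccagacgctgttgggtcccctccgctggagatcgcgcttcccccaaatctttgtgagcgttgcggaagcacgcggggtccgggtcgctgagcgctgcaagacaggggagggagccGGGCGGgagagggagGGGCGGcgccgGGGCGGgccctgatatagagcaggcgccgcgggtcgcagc
SERPINE2 (chr2:224031479-224031728, minus strand): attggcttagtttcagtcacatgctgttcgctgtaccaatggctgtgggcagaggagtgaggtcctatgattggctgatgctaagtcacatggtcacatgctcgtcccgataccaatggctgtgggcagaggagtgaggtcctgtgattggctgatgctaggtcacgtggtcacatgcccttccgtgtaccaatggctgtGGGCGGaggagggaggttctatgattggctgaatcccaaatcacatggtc
SERPINB5 (chr18:63476708-63476957, plus strand): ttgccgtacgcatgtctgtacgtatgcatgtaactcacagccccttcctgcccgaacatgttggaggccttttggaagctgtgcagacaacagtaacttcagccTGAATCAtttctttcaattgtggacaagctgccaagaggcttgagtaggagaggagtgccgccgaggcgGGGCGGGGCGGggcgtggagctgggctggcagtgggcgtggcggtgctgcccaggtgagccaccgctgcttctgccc
PLAUR (chr19:43670170-43670419, minus strand): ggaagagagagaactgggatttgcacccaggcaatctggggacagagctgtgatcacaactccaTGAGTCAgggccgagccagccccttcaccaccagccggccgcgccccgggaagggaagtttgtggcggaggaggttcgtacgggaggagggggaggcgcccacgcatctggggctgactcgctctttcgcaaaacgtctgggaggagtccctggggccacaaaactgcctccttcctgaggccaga

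The motifs were searched for on both strands. The AP-1 motif TGANTCA was present as TGAGTCA from base -186 to -180 of *PLAUR* and as TGAATCA from base -146 to -140 of *SERPINB5*, counted from the start. It was absent from the windows of *PLAU* and *SERPINE2*, both starts included, and 6.57% of all 35116 promoter windows of this length held it. The GC box GGGCGG occurred 3 times in the window of *PLAU* shown and was present in the windows of *SERPINE2* and *SERPINB5*, in the latter as 2 copies that share 1 base, against 42.6% of all windows. The CRE motif TGACGTCA, the ETS motif CCGGAAGT, and the TATA motif TATAAA, in 1.65%, 3.42%, and 10.7% of all windows, were not found in any of the 6 windows of these genes. A match of letters is a description of the sequence alone. No window for *PLAT* or *ADAMTS1* was used here.

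Counts summed to between 63822654 and 92401724 per library, with a median of 77866194. Markers of prostate luminal cells were present in every library, including *FOLH1* at 695 to 1639 TPM and *KRT8* at 306 to 1743 TPM, whereas the markers of other cell types were mixed. Basal *KRT5* and *TP63*, stromal *COL1A2* and *DCN*, endothelial *PECAM1* and *CDH5*, and leukocyte *PTPRC* and *CD3E* stayed at or below 0.04 TPM, and *LYZ* reached 0.15 TPM. Basal *KRT14* reached 2.17 TPM, stromal *COL1A1*, *VIM*, and *ACTA2* reached 5, 15.0, and 19.8 TPM, endothelial *VWF* reached 3.1 TPM, and leukocyte *CD68* reached 16.2 TPM, and each of these was above 0 in every library. In bulk RNA, fewer expressing cells and less RNA per cell cannot be told apart, and this holds for each difference below.

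Per transcript length, the 6 genes covered a wide range of levels. *ADAMTS1* had a mean of 312 TPM ± 41.6 (SD, *n* = 4) in CSS and was the gene of rank 412 among all 25498. *SERPINB5* followed at 6.23 TPM ± 1.34 and *SERPINE2* at 1.81 TPM ± 0.309. *PLAUR* (0.292 TPM ± 0.0802), *PLAT* (0.145 TPM ± 0.0370), and *PLAU* (0.00500 TPM ± 0.00577) lay below 1 TPM in CSS. The same 3 genes lay below 1 TPM in all 8 groups, so that the receptor and both activators were rare transcripts in these cells whatever the medium or ligand.

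**Figure D1:**
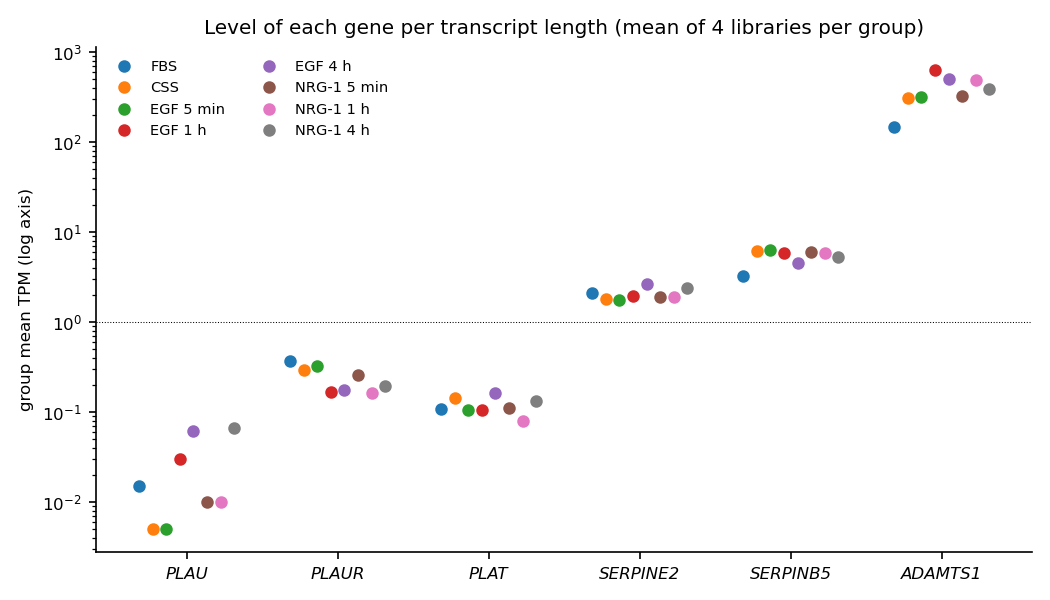
Mean TPM (log axis) of each gene in each of the 8 groups, with 4 libraries per mean; the dotted line marks 1 TPM. *ADAMTS1* lies between 147 and 634 TPM, *SERPINB5* and *SERPINE2* lie between 1.78 and 6.37 TPM, and the other genes lie below 1 TPM in every group.

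Differences between groups were tested with the quasi-likelihood test of edgeR over all 32 libraries, with a term for the batch, with Benjamini-Hochberg adjustment over the 16995 genes tested, which included all 6 genes. Genes were called DEGs when the adjusted P value was below 0.05 and the change exceeded 1 on the log2 scale. Levels are given as TMM-scaled CPM, that is read counts relative to the depth of the library, which are comparable between libraries but not between genes.

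At 5 minutes, none of the 6 genes passed the test with either ligand. With EGF, 0 of 6 passed the test, where 1 of all genes tested (0.00588%) did and was also the only DEG. With NRG-1, 0 of 6 passed, and 0 of all genes tested (0%) passed or were DEGs. DESeq2 and limma also gave 0 of 6 with each ligand, and 0 of 6 had an unadjusted P value below 0.05 with edgeR, DESeq2, or limma.

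At 1 hour, 1 of 6 genes passed the test with EGF, against 9.51% of all genes tested, and 0 of 6 were DEGs, against 1.72% of all genes. With NRG-1, 1 of 6 passed (6.73% of all genes) and 0 of 6 were DEGs (0.989% of all genes). In both cases the gene was *ADAMTS1*. Before adjustment, 3 of 6 genes had a P value below 0.05 with each ligand (edgeR). The share of all genes below that limit was not computed, here or in the other comparisons. Such unadjusted counts therefore do not set the 6 genes apart. DESeq2 called 1 of 6 and 0 DEGs with each ligand. With limma, 1 of 6 was called with each, and for EGF it was a DEG.

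At 4 hours, 4 of 6 genes passed with EGF (49.2% of all genes tested) and 1 of 6 was a DEG (9.56% of all genes). With NRG-1, 3 of 6 passed (42.6% of all genes) and 1 of 6 was a DEG (7.41% of all genes). *PLAU*, *SERPINE2*, and *ADAMTS1* rose with each ligand, and *SERPINB5* fell with EGF. In FBS against CSS, 3 of 6 genes passed (52.7% of all genes) and 0 of 6 were DEGs (8.71% of all genes): *SERPINE2* was higher, and *SERPINB5* and *ADAMTS1* were lower. At 4 hours and in FBS, so large a share of all genes passed that these counts do not set the 6 genes apart. For FBS, DESeq2 also gave 0 DEGs among the 6 genes and limma gave 1, *ADAMTS1*. All comparisons against CSS share the same 4 CSS libraries.

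**Figure D2:**
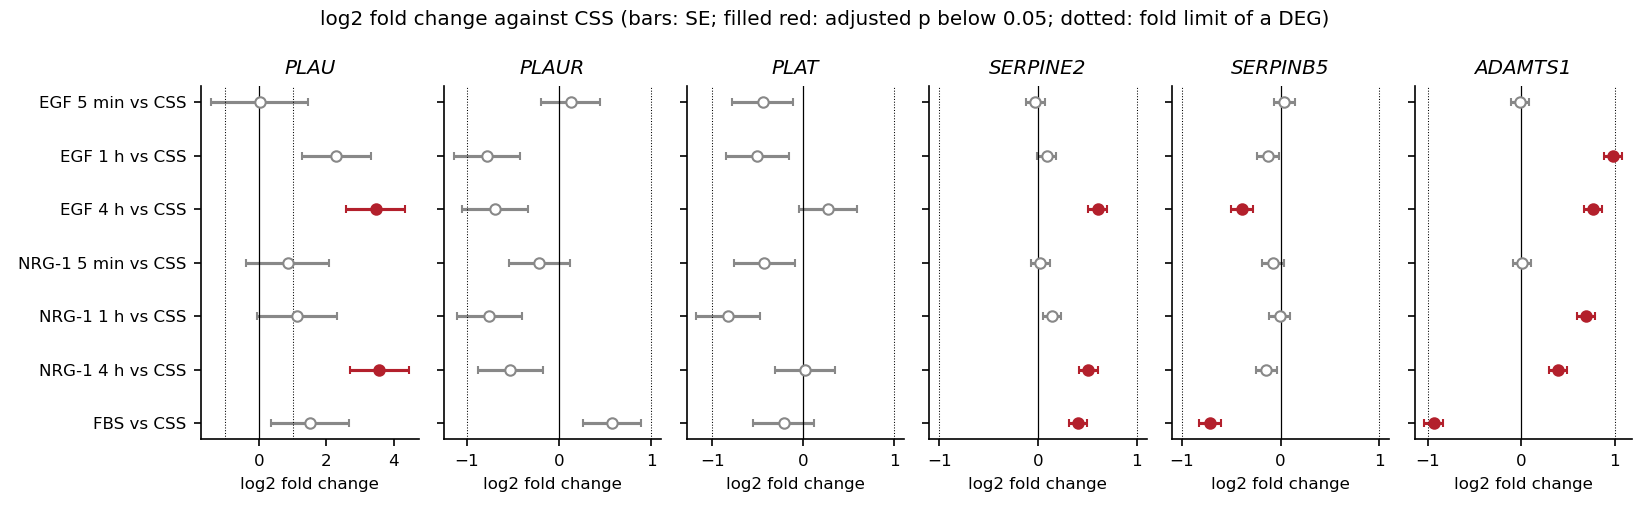
Log2 fold change of each gene in 7 groups against CSS from the edgeR fit; bars are the SE, filled red points have an adjusted P value below 0.05, and dotted lines mark the fold limit of a DEG at -1 and 1. *PLAU* at 4 hours of either ligand lies beyond the limit with a wide SE (0.87), and *ADAMTS1* at 1 hour of EGF and in FBS lies just inside it (0.98 and -0.94).

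*PLAU*, the gene of urokinase, was close to undetected in CSS and rose with 4 hours of either ligand. The CSS libraries held 0, 1, 1, and 0 reads, in the order batch 1 replicates 1 and 2, then batch 2 replicates 1 and 2, which is kept throughout. After 4 hours of EGF the libraries held 9, 5, 4, and 7 reads, and after 4 hours of NRG-1 they held 8, 6, 9, and 2 reads. Every library at 4 hours held more reads of *PLAU* than any CSS library. On the CPM scale the 4-hour means were 0.0857 ± 0.0381 (SD) for EGF and 0.0898 ± 0.0450 for NRG-1, against 0.00635 ± 0.00745 in CSS.

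The pooled counts were 25 for each ligand at 4 hours and 2 in CSS. Scaled for depth, the ratio to CSS was 13.4 with EGF (exact 95% interval 3.35 to 117) and 14.7 with NRG-1 (3.66 to 128), where the intervals cover counting error only. *PLAU* was the only one of the 6 genes that was a DEG, with fitted log2 fold changes against CSS of 3.46 (SE 0.87, adjusted P = 0.00151) for EGF and 3.57 (SE 0.87, adjusted P = 0.00132) for NRG-1. These fitted values rest on the small count that edgeR adds to each library and are not bounds. A gene was tested if 3 or more libraries held 5 counts or more. *PLAU* reached 5 counts only in libraries at 4 hours of a ligand. It was therefore tested only through the groups where it was high. Its calls at 4 hours, and between 1 and 4 hours, depend on that rise. Batch 2 alone had too few reads to test *PLAU*, and within batch 1 alone the log2 fold change was 3.47 for EGF (adjusted P = 0.0176) and 3.57 for NRG-1 (adjusted P = 0.0169).

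The earlier times and FBS gave fewer reads of *PLAU*. One hour of EGF gave 3, 3, 3, and 2 reads, more in each library than in any CSS library, and a pooled ratio of 5.93 (1.29 to 55.1), but the adjusted P value was 0.203. One hour of NRG-1 gave 2, 0, 0, and 3 reads, and FBS gave 0, 0, 3, and 3 reads, so that each of these groups overlapped CSS. At 5 minutes, the libraries held 0, 0, 0, and 2 reads with EGF and 2, 1, 0, and 1 reads with NRG-1. From 1 to 4 hours, *PLAU* rose in the NRG-1 series (log2 difference 2.45, SE 0.74, adjusted P = 0.00905) and had a log2 difference of 1.16 (SE 0.64, adjusted P = 0.146) in the EGF series.

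*PLAT*, the gene of the other activator, did not pass the test against CSS in any group. Its counts were 26, 14, 24, and 16 in CSS, 24, 25, 24, and 17 after 4 hours of EGF, and 21, 18, 12, and 18 after 4 hours of NRG-1. The groups at 4 hours overlapped CSS, with log2 fold changes of 0.27 (SE 0.32) and 0.02 (SE 0.33). At 1 hour, the counts were 11, 15, 16, and 10 for EGF, and 7, 20, 9, and 9 for NRG-1, for log2 fold changes of -0.50 (SE 0.34, adjusted P = 0.496) and -0.82 (SE 0.35, adjusted P = 0.211). The NRG-1 library of batch 1 replicate 2 stood above the other libraries of its group, and without it the log2 fold change at 1 hour was -1.28 with an adjusted P value of 0.0372. In FBS the counts were 8, 21, 17, and 15, and the log2 fold change was -0.21 (SE 0.34, adjusted P = 0.617).

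Between 1 and 4 hours, *PLAT* had log2 differences of 0.78 in the EGF series (SE 0.34, adjusted P = 0.0639) and 0.84 in the NRG-1 series (SE 0.36, adjusted P = 0.0685). With EGF, the 4 libraries at 4 hours all had a higher CPM than the 4 libraries at 1 hour (0.260 to 0.342 against 0.138 to 0.211). With batch and replicate number together as a block, both differences passed (adjusted P = 0.0436 and 0.0406), and without the NRG-1 1-hour library of batch 1 replicate 2 the NRG-1 difference was 1.31 (adjusted P = 0.00752).

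*PLAUR*, the gene of the urokinase receptor, did not rise with *PLAU*. Its counts were 22, 14, 13, and 24 in CSS, 3, 14, 9, and 16 after 4 hours of EGF, and 12, 9, 12, and 10 after 4 hours of NRG-1. The ranges overlapped in CPM, the lower means lay with the ligands, and neither difference passed (log2 fold change -0.69, SE 0.35, adjusted P = 0.110, and -0.53, SE 0.35, adjusted P = 0.246). At 1 hour, the counts were 14, 8, 4, and 13 for EGF, and 7, 10, 19, and 8 for NRG-1. The log2 fold changes were -0.78 (SE 0.36) and -0.75 (SE 0.35), with unadjusted P values of 0.0382 and 0.0410 and adjusted P values of 0.224 and 0.263 from edgeR. The 4-hour EGF difference passed when either the CSS library of batch 2 replicate 1 (-0.91, adjusted P = 0.0402) or the EGF library of batch 2 replicate 2 (-1.02, adjusted P = 0.0308) was left out.

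In FBS, *PLAUR* had its highest mean of the 8 groups, 0.336 CPM ± 0.0662, against 0.225 CPM ± 0.0666 in CSS. The FBS counts were 30, 17, 27, and 24, their CPM range overlapped that of CSS, and the log2 fold change was 0.57 (SE 0.31, adjusted P = 0.126). The ratio of pooled counts, 98 in FBS and 73 in CSS, was 1.49 (exact 95% interval 1.09 to 2.05, for counting error only). In the order of group means, each neighbor overlapped the next, from FBS down to 1 hour of EGF (0.131 CPM ± 0.0642).

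*SERPINE2*, the gene of protease nexin-1, which inhibits urokinase, tPA, plasmin, and thrombin, rose at 4 hours and did not pass the test at 1 hour. The CSS libraries were at 1.83, 1.88, 2.66, and 2.50 CPM. After 4 hours of EGF the values were 2.71, 3.12, 3.78, and 3.84 CPM, and after 4 hours of NRG-1 they were 3.00, 2.43, 3.89, and 3.29 CPM. All EGF libraries exceeded all CSS libraries, whereas the lowest NRG-1 library lay within the CSS range. The log2 fold change was 0.60 with EGF (SE 0.09, adjusted P = 3.83e-06) and 0.51 with NRG-1 (SE 0.09, adjusted P = 5.88e-05), that is 1.52-fold and 1.42-fold.

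At 1 hour, the mean of *SERPINE2* was 2.35 CPM ± 0.361 with EGF and 2.42 CPM ± 0.119 with NRG-1, against 2.22 CPM ± 0.425 in CSS (log2 fold change 0.09, adjusted P = 0.707, and 0.14, adjusted P = 0.501). From 1 to 4 hours it rose by a log2 difference of 0.51 in the EGF series (SE 0.09, adjusted P = 4.53e-05) and 0.37 in the NRG-1 series (SE 0.09, adjusted P = 0.00230). The latter call was lost in batch 1 alone (0.18, adjusted P = 0.334), in a fit of these groups only (0.0530), without the batch term (0.0582), and with limma on all genes (0.0621), whereas limma with its TPM filter kept it (0.0450 with a pseudocount of 1). *SERPINE2* was also higher in FBS, where the libraries were at 2.68, 2.73, 3.09, and 3.16 CPM. All FBS values exceeded all CSS values, and the log2 fold change was 0.41 (SE 0.09, adjusted P = 0.000695, edgeR). This call was lost in batch 2 alone (0.28, adjusted P = 0.126) and with limma on log2(TPM + 1) (0.14, adjusted P = 0.167), a scale on which the median of all genes lay at -0.16, and over all alternatives other than leaving out a library the adjusted P value ran from 0.000168 to 0.219.

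*SERPINB5*, the gene of maspin, was lower in FBS and after 4 hours of EGF than in CSS. The CPM values were 6.85, 7.39, 10.1, and 11.9 CPM in CSS and 4.46, 4.42, 6.42, and 6.64 CPM in FBS. All FBS libraries lay below all CSS libraries, and both groups were higher in batch 2. The log2 fold change in FBS was -0.72 (SE 0.11, adjusted P = 3.57e-06), a level of 0.609 times that in CSS. After 4 hours of EGF the values were 5.52, 5.56, 7.18, and 9.23 CPM, which overlapped CSS across batches but lay below CSS within each batch. The log2 fold change was -0.39 (SE 0.11, adjusted P = 0.00351). The call for EGF needed the batch term: without it the adjusted P value was 0.233, in batch 2 alone it was 0.261, and the lowest over all alternatives was 1.08e-05.

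After 4 hours of NRG-1, *SERPINB5* was at 6.25, 6.77, 8.75, and 10.9 CPM, a log2 difference from CSS of -0.14 (SE 0.11, adjusted P = 0.311, edgeR). With limma on log2(TPM + 1) this difference passed (-0.21, adjusted P = 0.0109), as it did with the other limma settings, and the adjusted P value ranged from 0.0103 to 0.764 across alternatives. On the log2(TPM + 1) scale the median of all genes in this comparison lay at -0.08, against -0.01 in the edgeR fit. At 1 hour the log2 fold changes were -0.13 with EGF (SE 0.11) and -0.01 with NRG-1 (SE 0.11). From 1 to 4 hours of EGF it fell by 0.27 on the log2 scale (SE 0.11), with an adjusted P value just inside the threshold. It lost that call when any library of either group was left out except the 4-hour library of batch 2 replicate 2, without which the adjusted P value was 0.0205, and the highest adjusted P value on leaving out a library was 0.185.

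*ADAMTS1* was the most abundant of the 6 genes and the only one that passed the test at 1 hour. The CSS libraries were at 861, 880, 803, and 735 CPM. After 1 hour of EGF they were at 1744, 1790, 1556, and 1401 CPM, and after 1 hour of NRG-1 at 1498, 1392, 1310.0, and 1105 CPM. All libraries at 1 hour, with each ligand, lay above all CSS libraries. The log2 fold change was 0.98 with EGF (SE 0.10, adjusted P = 7.34e-09), or 1.97-fold, and 0.69 with NRG-1 (SE 0.10, adjusted P = 7.04e-06), or 1.61-fold.

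At 4 hours, *ADAMTS1* was still higher than in CSS with either ligand. With EGF the values were 1533, 1450.2, 1385, and 1217 CPM, all above CSS, and with NRG-1 they were 1267, 1176, 1067, and 822 CPM, of which the lowest lay within the CSS range. The log2 fold change was 0.77 with EGF (SE 0.10, adjusted P = 1.29e-07) and 0.39 with NRG-1 (SE 0.10, adjusted P = 0.00147). The NRG-1 calls were lost in batch 2 alone, with log2 fold changes of 0.65 at 1 hour (adjusted P = 0.139) and 0.31 at 4 hours (adjusted P = 0.289), and the 4-hour call was also lost with limma on log2(TPM + 1) (0.29, adjusted P = 0.166). Over the alternatives, the adjusted P values ran from 2.15e-10 to 0.139 at 1 hour and from 9.38e-06 to 0.289 at 4 hours.

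*ADAMTS1* was below the DEG limit at 1 hour of EGF by a small margin. It was a DEG in batch 1 alone (1.03), with limma on log2(TPM + 1) (1.02), without the CSS library of batch 2 replicate 1 (1.02), and without the EGF library of batch 2 replicate 2 (1.00, just past the limit). In FBS *ADAMTS1* was at 571, 471, 381, and 313 CPM, all below CSS, a log2 difference of -0.94 (SE 0.10, adjusted P = 3.83e-09) or 0.522 times the level in CSS. This difference was a DEG in batch 2 alone (-1.14), with limma on log2(TPM + 1) (-1.14), and without the FBS library of batch 1 replicate 1 (-1.04). On the log2(TPM + 1) scale the median of all genes in FBS against CSS lay at -0.16.

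**Figure D3:**
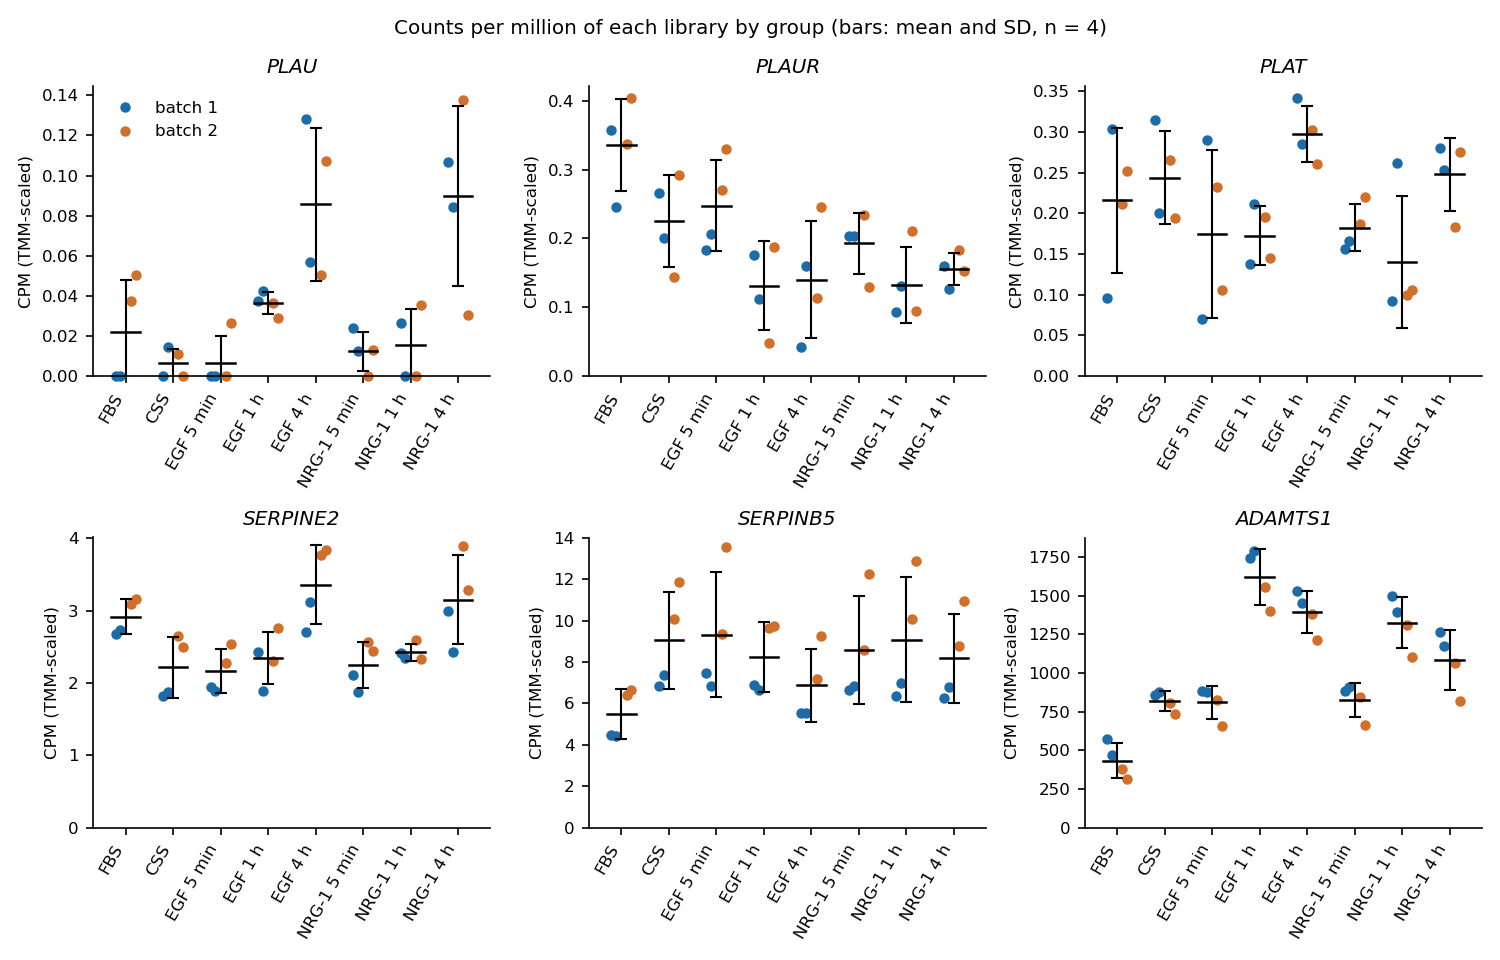
TMM-scaled CPM of each library (points, colored by batch) in the 8 groups for each gene, with the group mean and SD (bars, *n* = 4); each panel has its own linear axis from 0. *ADAMTS1* peaks at 1 hour (1623 CPM with EGF), *PLAU* and *SERPINE2* peak at 4 hours, and *SERPINB5* is lowest in FBS (5.48 CPM).

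*SERPINE2*, *SERPINB5*, and *ADAMTS1* had the same direction in both batches at 4 hours and in FBS, but their levels differed by batch. Batch 2 was higher than batch 1 by 0.62 on the log2 scale for *SERPINB5* (SE 0.05) and by 0.30 for *SERPINE2* (SE 0.05), and lower for *ADAMTS1* (-0.29, SE 0.05). For *PLAU*, *PLAUR*, and *PLAT* the difference was 0.12 (SE 0.40), 0.21 (SE 0.17), and -0.10 (SE 0.17). Within batches 1 and 2, the log2 fold change of *SERPINE2* at 4 hours was 0.66 and 0.59 for EGF, and 0.55 and 0.49 for NRG-1. For *SERPINB5* it was -0.68 and -0.74 in FBS and -0.36 and -0.39 after 4 hours of EGF. For *ADAMTS1* it was 1.03 and 0.95 after 1 hour of EGF, 0.78 in both batches after 4 hours of EGF, and -0.74 and -1.14 in FBS.

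**Figure D4:**
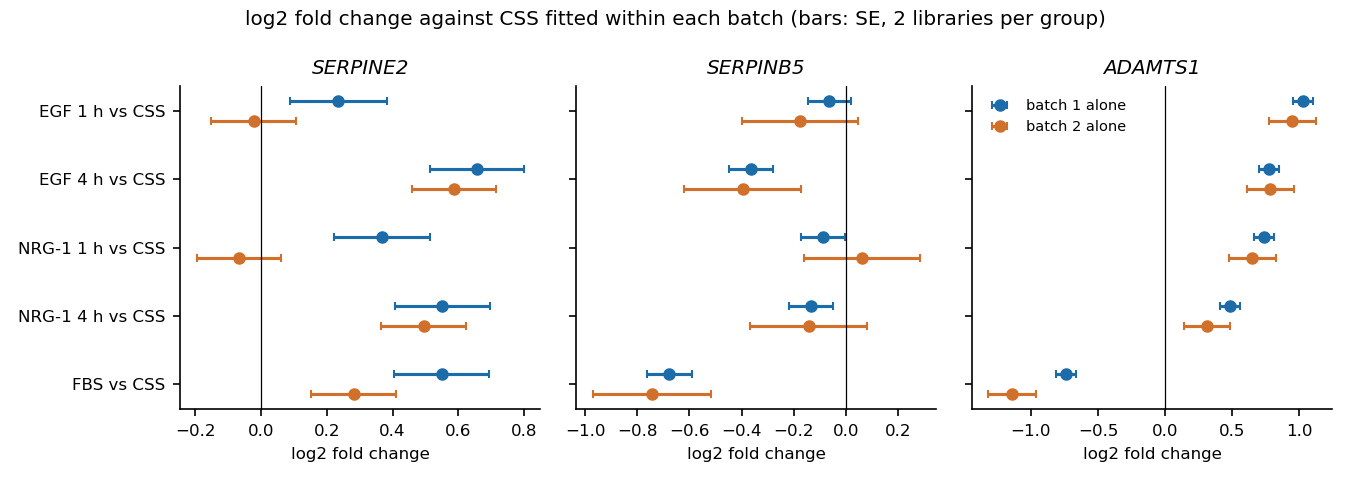
Log2 fold change against CSS of the genes with the most reads, fitted within batch 1 (blue) and within batch 2 (orange) with 2 libraries per group; bars are the SE. The points of both batches lie on the same side of 0 at 4 hours and in FBS for each gene, whereas *SERPINE2* at 1 hour lies at 0.23 and -0.02 for EGF, and at 0.37 and -0.07 for NRG-1.

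EGF was next compared with NRG-1 at each time. At 5 minutes, 0 of 6 genes differed, and 0 of all genes tested (0%) passed or were DEGs; edgeR, DESeq2, and limma each gave 0 of 6 with an unadjusted P value below 0.05. At 1 hour, 0 of 6 passed (1.06% of all genes, and 0.171% as DEGs) with edgeR, DESeq2, and limma, and 1 of 6, *ADAMTS1*, had an unadjusted P value below 0.05 with each tool. *ADAMTS1* was higher with EGF by 0.29 on the log2 scale (SE 0.10, unadjusted P = 0.00540, adjusted P = 0.254, edgeR), and with batch and replicate number as a block the adjusted P value was 0.00756.

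At 4 hours, 1 of 6 genes differed between the ligands (1.66% of all genes) and 0 of 6 were DEGs (0.171% of all genes). *ADAMTS1* was higher with EGF than with NRG-1 by 0.37 on the log2 scale (SE 0.10, adjusted P = 0.0387), with means of 1396 CPM ± 134 and 1083 CPM ± 192. The call was lost when any of the 4 EGF libraries, or the NRG-1 library of batch 1 replicate 2 or of batch 2 replicate 2, was left out, with adjusted P values between 0.0692 and 0.147, and was kept without either of the other NRG-1 libraries. It was also lost without the batch term, with limma, in a fit of only these groups, and in each batch alone, and the adjusted P value ranged from 0.000454 to 0.873 across alternatives. *SERPINB5* differed by -0.25 (SE 0.11, adjusted P = 0.36), which passed with the replicate block (adjusted P = 0.0388). The differences of *PLAU* (-0.11, SE 0.54), *PLAUR* (-0.16, SE 0.38), *PLAT* (0.26, SE 0.32), and *SERPINE2* (0.09, SE 0.09) did not pass.

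Between 1 and 4 hours, 2 of 6 genes differed in the EGF series (44% of all genes) and 0 of 6 were DEGs (8.22% of all genes). With edgeR, DESeq2, and limma, 0 of 6 were DEGs in the EGF series. With each, 4 of 6 had an unadjusted P value below 0.05, a limit for which the share of all genes was not computed. In the NRG-1 series 3 of 6 differed (37.5% of all genes) and 1 of 6, *PLAU*, was a DEG (6.79% of all genes). *SERPINE2* rose in both series, as given above. *ADAMTS1* fell by 0.30 in the NRG-1 series (SE 0.10, adjusted P = 0.0153) and had a log2 difference of -0.21 in the EGF series (SE 0.10, adjusted P = 0.0740). The NRG-1 call was lost without the batch term (adjusted P = 0.153), in batch 2 alone (0.280), with limma (0.126), and without the 1-hour library of batch 2 replicate 1 (adjusted P = 0.0624) or the 4-hour library of batch 2 replicate 2 (0.0580), and the EGF difference passed with the replicate block (0.00574), in batch 1 alone (-0.26, adjusted P = 0.0101), with only the groups compared (0.00236), and without the 4-hour library of batch 2 replicate 1 (0.0406). The change from 1 to 4 hours did not differ between the ligands for any of the 6 genes with edgeR, DESeq2, or limma, nor was any unadjusted P value below 0.05 (0.506% of all genes passed, and 0.0824% were DEGs). For *ADAMTS1* that difference of differences was 0.08 (SE 0.14).

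The other genes of the plasminogen system were taken as a list of 21, of which 15 had enough reads to be tested. After 4 hours of EGF, 6 of 15 rose and 3 fell, where 24.6% of all genes rose and 24.6% fell, and after 4 hours of NRG-1, 5 rose and 1 fell, where 21.6% of all genes rose and 21% fell. In FBS, 4 of 15 were higher and 3 lower than in CSS (26% and 26.8% of all genes). The medians of the list were -0.09, -0.04, and 0.08 on the log2 scale, against -0.02, -0.01, and -0.01 over all genes tested. At 1 hour 0 of 15 passed with either ligand, where 9.51% of all genes passed with EGF and 6.73% with NRG-1. So small a list does not stand apart from these shares. *TMPRSS2*, a membrane serine protease gene under androgen control, was a DEG in FBS (log2 fold change 2.51, SE 0.08, adjusted P = 1.33e-19), at 460 CPM ± 109 (SD) against 81.0 CPM ± 19.1 in CSS.

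*ANXA2*, whose product is a cell-surface binding site of tPA and plasminogen and which was chosen from this list after its values were seen, was at 0.234 CPM ± 0.0695 in CSS and at 1.14 CPM ± 0.154 and 0.982 CPM ± 0.198 after 4 hours of EGF and NRG-1; it has near-identical pseudogene copies, so its reads are uncertain. Its log2 fold change was 2.29 with EGF (SE 0.25, adjusted P = 1.18e-08) and 2.06 with NRG-1 (SE 0.26, adjusted P = 1.47e-07).

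Partners of uPAR and the receptors that clear complexes of urokinase and its inhibitors made up a list of 18, with 15 tested. In FBS, 1 of 15 was higher and 9 were lower than in CSS (26% and 26.8% of all genes), with a median of -0.79 on the log2 scale against -0.01 over all genes tested. At 4 hours, 5 rose and 4 fell with EGF (24.6% and 24.6% of all genes), and 5 rose and 3 fell with NRG-1 (21.6% and 21%). *LRP1*, the receptor that takes up urokinase bound to its inhibitors, was at 7.39 CPM ± 0.787 in FBS and 18.8 CPM ± 3.30 in CSS (log2 fold change -1.34, SE 0.20, adjusted P = 2.36e-06). *ITGA3*, an integrin subunit that binds uPAR, was at 6.09 CPM ± 1.15 in FBS and 13.3 CPM ± 1.83 in CSS (-1.12, SE 0.11, adjusted P = 7.32e-10). *PLAUR* itself had a log2 fold change of 0.57 in the same comparison.

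*ADAMTS1* dominated its family in these cells. Of the summed TPM of *ADAMTS1* and the 18 other listed family genes, it made up 97.7% ± 0.121 (SD) in CSS, 98.9% ± 0.123 after 1 hour of EGF, and 96.6% ± 0.738 in FBS. The 18 other genes summed to 7.52 TPM ± 1.36 in CSS. Of these, 12 were tested; after 4 hours 2 rose and 3 fell with EGF (24.6% and 24.6% of all genes), and 3 rose and 3 fell with NRG-1 (21.6% and 21%). At 1 hour, 0 of 12 rose and 1 fell with each ligand, where 6% of all genes rose and 3.51% fell with EGF and 4.45% rose and 2.28% fell with NRG-1. That gene was *ADAMTS15* (log2 fold change -0.52, SE 0.15, adjusted P = 0.0204 with EGF, and -0.59, SE 0.15, adjusted P = 0.00948 with NRG-1), which was chosen after its values were seen. In FBS, 0 of 12 were higher and 3 were lower (26% and 26.8% of all genes).

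**Figure D5:**
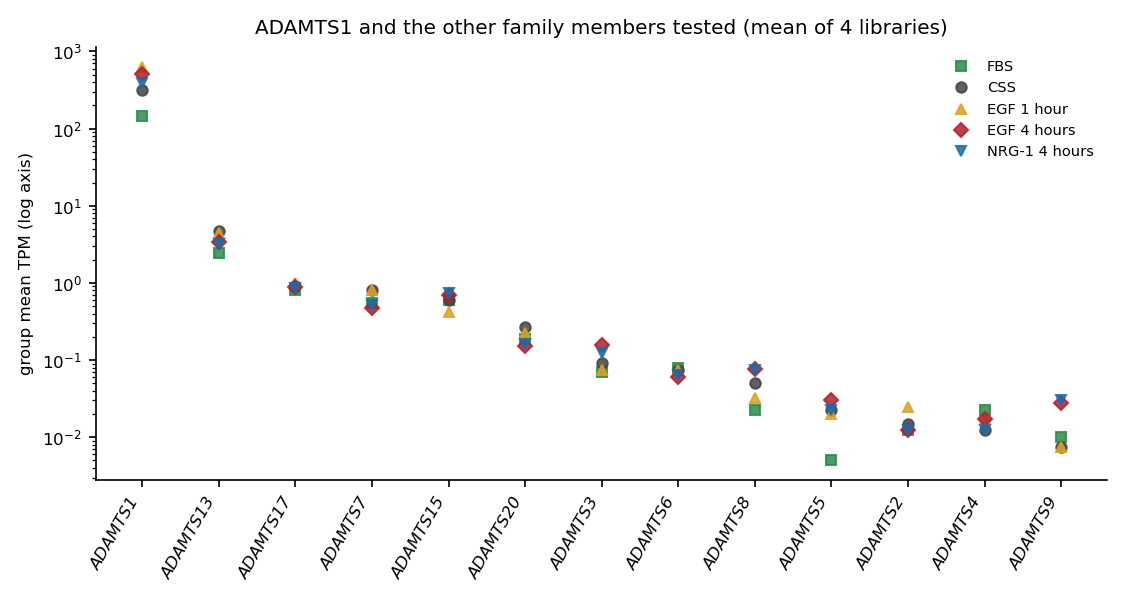
Mean TPM (log axis) of *ADAMTS1* and of the 12 other family genes tested, in 5 of the groups, with 4 libraries per mean. *ADAMTS1* lies at 147 TPM in FBS to 634 TPM after 1 hour of EGF, and the others lie below 5 TPM; a mean of 0 is not drawn.

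Substrates and an inhibitor of ADAMTS1 made up a list of 10 genes, with 8 tested. At 1 hour, 3 of 8 rose and 0 fell with each ligand. Over all genes, 6% rose and 3.51% fell with EGF, and 4.45% rose and 2.28% fell with NRG-1. At 4 hours, 4 rose and 1 fell with each ligand (24.6% and 24.6% of all genes for EGF, 21.6% and 21% for NRG-1), and in FBS 1 was higher and 4 were lower (26% and 26.8%). *THBS1*, whose product thrombospondin 1 is cut by ADAMTS1, had log2 fold changes of 1.64 and 0.85 after 1 hour of EGF and NRG-1 (SE 0.12 for each) and, unlike *ADAMTS1*, was higher in FBS (1.10, SE 0.12, adjusted P = 1.10e-08). *TIMP3*, a matrix-bound inhibitor of metalloproteases, was chosen after its values were seen. Its log2 fold changes were 4.43 after 1 hour of EGF (SE 0.23), 2.53 after 1 hour of NRG-1 (SE 0.24), and -1.40 in FBS (SE 0.38), with adjusted P values of 4.67e-15, 7.04e-09, and 0.00274.

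Of 12 other clade B serpin genes, the family of *SERPINB5*, 3 were tested. *SERPINB8* rose with both ligands at 4 hours, from 4.25 CPM ± 0.624 in CSS to 17.1 CPM ± 1.14 for EGF (2.03 on the log2 scale, SE 0.11, adjusted P = 2.32e-15) and 13.3 CPM ± 1.71 for NRG-1 (1.65, SE 0.11, adjusted P = 3.14e-13). *SERPINB5* had log2 fold changes of -0.39 and -0.14 in those comparisons. The others were *SERPINB1*, which passed at 4 hours with each ligand from a level of few reads, and *SERPINB6*, which passed in FBS alone (0.27, SE 0.10, adjusted P = 0.0228), and both are named after their values were seen.

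The genes whose levels ran most alike were sought by Pearson's *r* over the 32 libraries, on log2 CPM with the batch difference removed, leaving out genes whose average log2 CPM was under 1. For *ADAMTS1* they were *AATK* (*r* = 0.97), *EPHA2* (0.97), and *CPEB4* (0.96). For *SERPINB5* they were *TDRD7* (0.95), *UGT2B17* (0.94), and *SERINC1* (0.93), and for *SERPINE2* they were *WRAP73* (0.91), *NPTX2* (0.90), and *TMEM243* (0.89). *EPHA2*, a receptor tyrosine kinase gene, had means of 5.50 CPM ± 0.634 in CSS, 13.7 CPM ± 2.09 after 1 hour of EGF, 10.8 CPM ± 0.879 after 4 hours of EGF, and 3.17 CPM ± 0.569 in FBS, and its 8 group means had the same order as those of *ADAMTS1*. The values were lower for the rare genes: *PLAU* had *r* of 0.83 with *LOC100133091*, *PRNP*, and *C9orf3*, *PLAUR* had 0.77 with *ZNF230*, 0.74 with *ZNF285*, and 0.73 with *ZNF43*, and *PLAT* had 0.71 with *CCNL2*, 0.70 with *OFD1*, and 0.69 with *NSUN5P1*. Among the 6 genes, *PLAU* and *SERPINE2* had an *r* of 0.62, *PLAU* and *PLAUR* -0.39, *PLAUR* and *ADAMTS1* -0.70, and *SERPINE2* and *SERPINB5* -0.58. These values describe libraries that share groups and batches.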

How the data were processed

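Groups, batches, and replicate numbers of the 32 LNCaP libraries were read from the labels. The authors trimmed reads with Trimmomatic 0.36 and estimated gene values with RSEM around STAR 2.7.0f, in stranded mode per the methods and on hg19 per the submitters' processing notes. They deposited an expected count per gene and library, not normalized for depth, and a TPM value per gene and library, normalized for transcript length and library total. No replicates were pooled.

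Expected counts were rounded, and a gene was tested if 3 or more libraries held 5 counts or more (16995 of 25498). The test was the quasi-likelihood test of edgeR 4.0.16 (R 4.3.3) with TMM, group, and batch. Of the 192 values of the 6 genes, 0 were not whole before rounding, against 11.2% of all values. At these depths, counting error was largest for *PLAU*, *PLAUR*, and *PLAT*, which held at most 30 reads in any library; *SERPINE2* held 131 to 300. Same-group libraries differed by more than sampling noise in all 48 pairs (chi-square per degree of freedom at least 6.50). After subtraction of group means, same-numbered libraries correlated in each of 112 pairs (*r* 0.34 to 0.93), largely through the batch that they share per the labels. With the batch removed, *r* ran from -0.46 to 0.88 with a median of 0.25, and 71 of 112 exceeded 0.1. These values do not settle whether libraries of the same number within a batch were paired. The replicate block was kept as an alternative, and it changed some calls.

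The 6 genes, the gene lists, and the tests were chosen with earlier results of these data known. Genes named by rule were the 6 genes, list genes that were DEGs at 4 hours or in FBS whose average log2 CPM reached 1 (at most 4 per list), and the 3 genes most alike to each. Besides these, *ANXA2*, *ADAMTS15*, *TIMP3*, *SERPINB1*, and *SERPINB6* were named after their values were seen. Alternatives were DESeq2 1.42.0, its size factors in edgeR, 2 other count filters, no batch term, the replicate block, a fit of just the groups compared, each batch by itself, limma 3.58.1 on log2 TPM (pseudocount 1 or 0.1, genes at 0.5 TPM or more in 3 libraries, or all genes), and each library left out in turn. On simulated counts for 4 hours of EGF against CSS with 200 changed genes, edgeR recovered 200 with 9 false calls among 16868 genes tested. The changed genes lay above about 1 CPM, changed by more than 1 on the log2 scale, and no batch difference was drawn. The recovery therefore does not cover the rare *PLAU*, *PLAUR*, and *PLAT*, nor changes smaller than 1 on the log2 scale. Promoter windows came from RefSeq, in which 4 of the 6 symbols were used.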

Additional observations from a re-analysis of the deposited data

Results flagged for a closer look

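*ADAMTS1* differed between the ligands at 4 hours, higher with EGF than with NRG-1 by 0.37 on the log2 scale in the test of the difference itself (adjusted P = 0.0387, edgeR); the 4 values were 1533, 1450.2, 1385, and 1217 CPM with EGF and 1267, 1176, 1067, and 822 CPM with NRG-1, and within each batch and replicate number the EGF library was the higher one. The call held under 5 of 12 alternatives and in 2 of 8 fits that left out a library of these groups.

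Of 48 sets of 4 libraries (6 genes in 8 groups), 2 had a library far from the other 3, where about 2.4 are expected by chance at 1 in 20. *PLAU* was at 0.0264 CPM in the 5-minute EGF library of batch 2 replicate 2, which held 2 reads while the others held 0. *PLAT* was at 0.262 CPM in the 1-hour NRG-1 library of batch 1 replicate 2, with 20 reads against 7, 9, and 9 in the others.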

How the results depend on the processing

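The log2 fold changes of the 6 genes were refitted under the 12 alternatives other than leaving out a library. Of these, 758 kept their side of the threshold, 30 lost it, and 11 gained it. Where the edgeR fit of all libraries or the alternative passed, 0 reversed in sign. Changes of sign where neither passed were not counted. *SERPINE2* at 1 hour of NRG-1, for example, was at 0.14 in the fit of all libraries and at -0.07 in batch 2 alone. On leaving out each library in turn, 652 kept their side, 15 lost it, and 5 gained it. Some values could not be fitted because too few reads were left: *PLAU*, *PLAUR*, and *PLAT* with at least 10 counts in every library and with limma under its TPM filter, and *PLAU* in batch 2 alone and, for some comparisons, in a fit of only the groups compared.

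The number of genes passing fell in batch 2 alone to 2 of 4 at 4 hours of EGF, 0 of 1 at 1 hour of NRG-1, 1 of 3 at 4 hours of NRG-1, 0 of 1 between the ligands at 4 hours, and 1 of 2 and 1 of 3 between 1 and 4 hours of EGF and NRG-1. Without the batch term it was 0, 1, and 1 for the last 3 of these; with limma it was 0 between the ligands and 1 in the NRG-1 series; between the ligands at 4 hours it was also 0 in batch 1 alone and with only the groups compared; and between 1 and 4 hours of EGF it was 1 without the filter and 4 with only the groups compared. With the replicate block, 1 gene in place of 0 passed between the ligands at 1 hour, 2 in place of 1 at 4 hours, and 4 in place of 2 between 1 and 4 hours of EGF; in the NRG-1 series *PLAT* was added, and the block changed no other call.

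DEGs were 0 in place of 1 (*PLAU*) at 4 hours of each ligand and in the NRG-1 time series with at least 10 counts, in batch 2 alone, and with limma, where *PLAU* either was not tested or had a log2 difference held near 0 by the pseudocount. They were 1 in place of 0 (*ADAMTS1*) at 1 hour of EGF in batch 1 alone and with limma, and in FBS in batch 2 alone and with limma. On leaving out 1 library, the number passing was 1 to 2 between 1 and 4 hours of EGF, 0 to 1 between the ligands at 4 hours, and 1 to 2 at 1 hour of NRG-1, and DEGs were 0 to 1 at 1 hour of EGF, in FBS, and at 1 hour of NRG-1, and 1 to 2 at 4 hours of EGF and in the NRG-1 series. Apart from fits with fewer genes or libraries, the cause was not tested. Low reads limit *PLAU*, *PLAUR*, and *PLAT*: the SE of *PLAU* against CSS at 4 hours was 0.87.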
